A study of Homo sapiens with 6 samples.

Results

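Ferroptosis is a form of cell death in which polyunsaturated fatty acids in membrane phospholipids are oxidised with the help of iron. Acyl-CoA synthetases and lysophospholipid acyltransferases place such fatty acids into phospholipids, and several separate systems reduce the resulting lipid peroxides or trap lipid radicals. Artemisinins carry an endoperoxide bridge that reacts with ferrous iron and heme, and they are studied as inducers of this form of death in tumour cells. The 10 genes described here are regulators of membrane lipid peroxidation: the repair and radical-trapping genes GPX4, AIFM2, DHODH and GCH1, the lipid substrate genes ACSL4, ACSL3 and LPCAT3, the prostaglandin synthase PTGS2, and the mitochondrial outer membrane channels VDAC2 and VDAC3. They were chosen by name, each matched 1 gene of the deposited count table, and they are 10 of its 39293 genes with separate names.

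All cells were SW480, an epithelial line from a human colorectal cancer, grown in medium with 10% serum. The treated group was 3 wells given dihydroartemisinin, abbreviated DHA throughout, at 20 µg/mL for 4 h. The control group was 3 wells given 0.1% DMSO, the solvent. No knockdown, rescue compound or ferroptosis inhibitor was part of the design, and the DMSO content of the DHA wells is not given in the labels. The labels do not say that wells came from separate cultures, so the p-values reflect spread among wells, which may be technical. The title of 1 DHA library reads DNA, so groups were taken from the treatment label. Messenger RNA was measured, so nothing here bears on protein, enzyme activity or lipid peroxide levels.

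Library totals ran from 14291726 to 18938456 counts. Levels are counts scaled to a library total of 1000000 (CPM), and 3 counts, taken as the limit of detection, equal 0.158 to 0.210 CPM. In bulk RNA, fewer cells of a type and less RNA per cell cannot be told apart. The summed level of 9 epithelial and colorectal markers was 4241 to 4635 CPM in controls and 5477 to 5623 CPM in DHA, and most of it came from the keratins KRT8, KRT18 and KRT19, which were called higher. The adhesion gene CDH1 was called lower at a log2 of -0.28, EPCAM and CDX2 were both at -0.08 and did not pass, and the list median was -0.08. VIL1 and CDH17, colorectal marker genes, stayed below 1 CPM on average in both groups. The summed level of 13 markers of other cell types was 23.4 to 32.2 CPM in controls and 72.8 to 97.0 CPM in DHA. COL1A1, at 25.1 ± 4.38 and 78.8 ± 12.2 CPM (mean ± SD, n = 3), made up most of that sum, whereas the leukocyte gene PTPRC and the fibroblast gene COL1A2 were at 0 counts in every library. The part of these markers in the results was not tested.

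The DHA response was broad, so a call on any gene has a high background. With edgeR (quasi-likelihood F test, p-values adjusted by Benjamini-Hochberg over all 15811 genes tested), 59.6% of genes passed an adjusted p of 0.05, 29.6% of them higher and 30.1% lower as shares of all genes tested. Of the 10 regulators, all of which passed the low-count filter, 7 passed, 3 higher (GPX4, PTGS2 and VDAC2) and 4 lower (ACSL4, ACSL3, LPCAT3 and VDAC3), which is near that background. The same 7 regulators had groups that did not overlap in CPM, against 65.5% of all genes tested. PTGS2 was the only regulator that also changed by at least 2-fold, against 15.7% of all genes tested. The median log2 fold change was -0.02 over the 10 regulators and 0.01 over all genes tested.

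**Figure D1:**
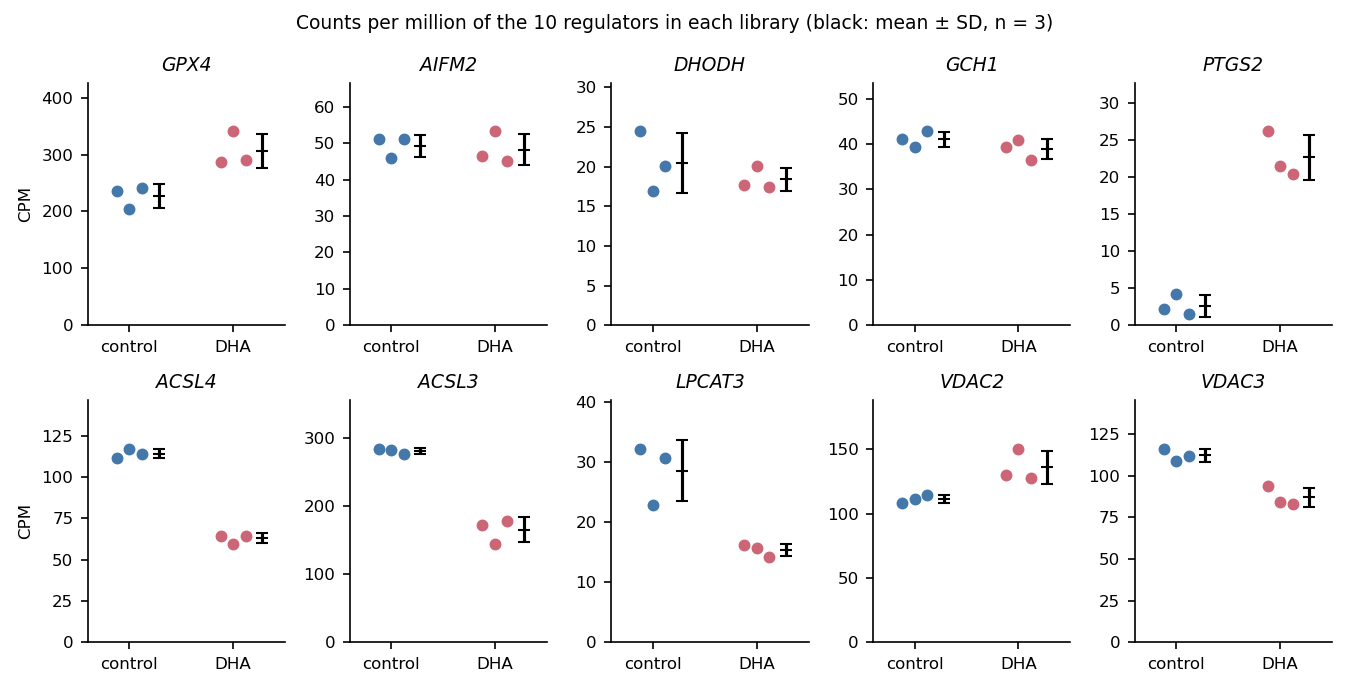
Level of each regulator in CPM, with 1 point per library, 3 control and 3 DHA libraries per panel, and the mean ± SD in black. The groups do not overlap for GPX4, PTGS2, ACSL4, ACSL3, LPCAT3, VDAC2 and VDAC3, and they overlap for AIFM2, DHODH and GCH1.

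Fold changes also followed the base composition of the transcripts, which bears on several regulators. Among tested genes whose longest annotated transcript had a GC content under 40%, the median log2 fold change was -0.36 over 2345 genes, and among those at 60% or more it was 0.43 over 2382 genes. GPX4, at 62.5% GC, lay in the upper range, while ACSL4 at 37.4%, ACSL3 at 38.1% and PTGS2 at 36.9% lay in the lower range. A second fit, added after the data were seen, therefore removed a smooth trend with GC content and exon length from each library. Its values, given below as those with the offset, stand beside some of the results that it moved, so other results may also have moved. Among the epithelial markers, the calls of KRT19 and CDH1 ended, at 0.06 and -0.17. Those of KRT8 and KRT18 stayed, and EPCAM was called lower at -0.21. Whether the trend is technical or part of the response was not tested.

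**Figure D2:**
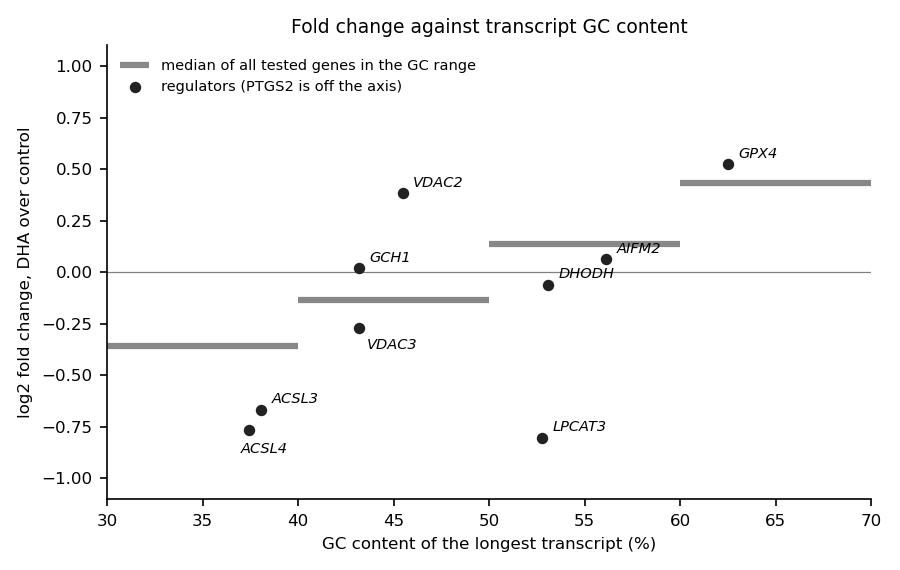
Log2 fold change (DHA over control) against the GC content of the longest transcript in percent, with 1 point per regulator. Grey bars are the medians of all tested genes with GC content under 40%, from 40% to 50%, from 50% to 60%, and at 60% or more, which rise from -0.36 to 0.43; PTGS2, at 3.23, is not drawn.

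GPX4 encodes the selenoenzyme that reduces phospholipid hydroperoxides with glutathione. The codon for its catalytic selenocysteine is a TGA inside the reading frame, on chromosome 19 at bases 1105403 to 1105405 of GRCh38, and in the 4 annotated transcripts of GENCODE release 29 in which it was located it lies in the same surrounding bases. It is shown because translation past this codon depends on genes of selenoprotein synthesis, some of which are described further on. The TGA is in capitals.
GPX4 selenocysteine codon: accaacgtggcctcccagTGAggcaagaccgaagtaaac

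GPX4 (chromosome 19, 1103926 to 1106791, plus strand) was at the top of the 10 genes per kilobase of exon. Its level was 237, 204 and 242 CPM in the control libraries and 287, 341 and 290 CPM in the DHA libraries. Every DHA library stood above every control, with the DHA library of replicate 2 the highest and the control library of replicate 2 the lowest. The log2 fold change was 0.52 ± 0.09 (SE), or 1.44-fold, with a 95% interval from 0.33 to 0.71 and an edgeR adjusted p of 0.000275. The call ended with the GC and length offset, at -0.04 ± 0.07 with an edgeR adjusted p of 0.652 and an interval from -0.18 to 0.10. Among the other glutathione peroxidases, GPX1 rose by 0.51 ± 0.08 but was called lower with the offset, at -0.16 with an edgeR adjusted p of 0.0445, and GPX3 fell by 1.49 ± 0.38 from 1.20 ± 0.301 CPM. Of the 7 genes in that list, 3 were tested, and the third, GPX8, had a log2 fold change of -0.09 ± 0.10. With the offset 0 of them were higher and 2 lower.

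Genes of glutathione supply and turnover were mostly higher in DHA. Of 10 listed, 9 were tested, 8 rose and 1 fell, beside 29.6% and 30.1% of all genes tested. The median log2 fold change was 0.91 beside 0.01 over all genes tested. The members that rose include CHAC1 and GGT1, which break glutathione down, by 1.60 ± 0.39 and 1.03 ± 0.17. GCLC, the catalytic subunit of glutamate-cysteine ligase, rose by 0.53 ± 0.07 and its modifier subunit GCLM by 1.06 ± 0.15. SLC3A2, the heavy chain of the cystine importer, rose by 0.91 ± 0.13, and CTH, which makes cysteine from cystathionine, by 0.74 ± 0.10. The member that fell was GSR, which regenerates reduced glutathione, at -0.48 ± 0.08. With the GC and length offset 8 were again higher and 1 lower. The DHA library of replicate 2 was the highest for several of these genes: GCLM was at 53.4, 88.2 and 56.2 CPM in DHA and SLC3A2 at 388, 569 and 374 CPM. That library differed from the other DHA libraries by a chi-square per gene of 14.6 and 14.8, while those of replicates 1 and 3 differed by 1.66. Without it 8 were higher and 1 lower, with GCLM at 0.83 and SLC3A2 at 0.73, and without the control library of replicate 2 the numbers were 7 and 1. The part of these libraries in the result was not tested further.

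Genes listed for selenoprotein synthesis, with SELENOI included though it is itself a selenoprotein, moved in both directions. Of 11 tested, 3 rose and 5 fell, beside 29.6% and 30.1% of all genes tested, with a median of -0.11. SECISBP2, which binds the selenocysteine insertion element of selenoprotein mRNAs, rose by 0.48 ± 0.07, while its relative SECISBP2L fell by 1.01 ± 0.08. The kinase PSTK, which acts on the selenocysteine transfer RNA, rose by 0.74 ± 0.14, and the elongation factor EEFSEC by 0.49 ± 0.09, which became 0.01 with the offset. SCLY, which releases selenium from selenocysteine, fell by 1.23 ± 0.17 and SELENOI, a selenoprotein of phospholipid synthesis, fell by 0.67 ± 0.07.

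The GPX4 promoter window, from 250 bases before to 50 bases after a RefSeq transcription start, is shown with the motifs searched in capitals. These were the TATA box TATAAA, the cyclic AMP response core TGACG, the AP-1 site TGANTCA, the antioxidant response core TGACNNNGC, the GC box GGGCGG, the CCAAT box CCAAT and the E-box CACGTG, each on both strands. Among 34796 windows of the same length, they occurred in 11.6%, 24.5%, 7.73%, 13.3%, 44.9%, 34.6% and 7.20%, in that order. Windows of 8 of the 10 regulators were searched. GCH1 had none, and VDAC3 was left out of the search.
GPX4 promoter, plus strand, GRCh38.p14, chr19:1103744-1104043: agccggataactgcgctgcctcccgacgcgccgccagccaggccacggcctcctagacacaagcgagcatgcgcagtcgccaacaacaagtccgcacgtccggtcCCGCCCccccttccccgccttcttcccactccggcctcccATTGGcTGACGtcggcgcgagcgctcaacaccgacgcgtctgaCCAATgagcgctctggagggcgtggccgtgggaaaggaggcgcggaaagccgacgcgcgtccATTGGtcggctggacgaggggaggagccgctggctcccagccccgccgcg
This window held 3 CCAAT boxes, 1 GC box and 1 cyclic AMP response core, and no antioxidant response core, TATA box, AP-1 site or E-box. GPX4 has 3 RefSeq windows, and they differ: the third held 4 GC boxes, 1 cyclic AMP response core and no CCAAT box. The counts are summed over the gene, so start sites were not separated.

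AIFM2, also called FSP1, DHODH and GCH1 are 3 further protective genes that act without glutathione, and none of them passed. AIFM2 reduces coenzyme Q at the plasma membrane, DHODH reduces it in the mitochondrial inner membrane during pyrimidine synthesis, and GCH1 begins the synthesis of the radical-trapping cofactor tetrahydrobiopterin. AIFM2 (chromosome 10, 70098223 to 70132934, minus strand) was at 51.1, 45.8 and 51.0 CPM in controls and 46.4, 53.2 and 45.1 CPM in DHA. The groups overlapped throughout, and its log2 fold change was 0.06 with a 95% interval from -0.12 to 0.25 and an edgeR adjusted p of 0.531.

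DHODH (chromosome 16, 72008588 to 72027664, plus strand) was the most scattered of the group. It was at 24.4, 17.0 and 20.1 CPM in controls and 17.7, 20.1 and 17.5 CPM in DHA. The control library of replicate 1 stood above all others, and the other control values fell within or near the DHA range. Its log2 fold change was -0.06 with an interval from -0.34 to 0.22 and an edgeR adjusted p of 0.712, or 0.09 without that control library. GCH1 (chromosome 14, 54842008 to 54902852, minus strand) was at 41.0, 39.3 and 42.7 CPM in controls and 39.3, 40.9 and 36.5 CPM in DHA. These groups overlapped, with a log2 fold change of 0.02, an interval from -0.15 to 0.19 and an edgeR adjusted p of 0.842. Fold changes here used a further scaling between libraries (TMM) that the CPM lack, so their directions can differ. With library totals alone, AIFM2 was at -0.03 and GCH1 at -0.08. Changes larger than the bounds of the intervals given for AIFM2, DHODH and GCH1, at most 1.27-fold in either direction for the 3 genes, lie outside the 95% intervals.

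Among the 8 regulators searched, AIFM2 was the one whose promoter window held an antioxidant response core, and that match overlaps an AP-1 match. It is shown beside a gene with no called change.
AIFM2 promoter, minus strand, GRCh38.p14, chr10:70132776-70133075: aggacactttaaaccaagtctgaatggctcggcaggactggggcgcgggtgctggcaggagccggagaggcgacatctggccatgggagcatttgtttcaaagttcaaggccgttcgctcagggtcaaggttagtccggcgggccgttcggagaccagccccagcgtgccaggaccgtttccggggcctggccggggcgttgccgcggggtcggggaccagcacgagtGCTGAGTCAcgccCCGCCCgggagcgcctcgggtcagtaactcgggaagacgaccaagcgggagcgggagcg
The core match begins at position -22 and the AP-1 match at position -20, counted from the transcription start, and a GC box begins at position -9.

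The genes around these 3 enzymes gave no common direction except in pyrimidine synthesis. The 16 coenzyme Q and quinone reduction genes, all tested, had a median of 0.00, and 4 were called higher and 4 lower. These and the counts below stand beside 29.6% called higher and 30.1% called lower over all genes tested. COQ8B, an atypical kinase of coenzyme Q synthesis, rose by 1.04 ± 0.09, while STARD7, which carries phosphatidylcholine to mitochondria, fell by 0.78 ± 0.06 and the quinone reductase VKORC1L1 fell by 0.90 ± 0.07. The paralogs of AIFM2 split, with the mitochondrial flavoprotein AIFM1 lower by a log2 of -0.24 ± 0.07 and AIFM3 higher by 1.02 ± 0.22 from 2.79 ± 0.785 CPM. Of 6 tested tetrahydrobiopterin genes, 3 rose: PTS, the second enzyme of the pathway, by 0.61 ± 0.11, SPR, the last, by 0.51 ± 0.12, and PCBD1, which acts in recycling the cofactor, by 0.20 ± 0.07. With the GC and length offset SPR was at -0.04 and PCBD1 was lower at -0.24, so that PTS alone of these 3 rose. The PCBD1 call was also lost without the control library of replicate 2, at 0.18. Of 5 genes of de novo pyrimidine synthesis other than DHODH, 4 fell and 0 rose, with a median of -0.49, and with the offset 3 fell and 1 rose. CAD, which carries out the first steps, fell by 0.65 ± 0.06, and UMPS, which acts after DHODH, fell by 0.49 ± 0.09, both also lower with the offset at -0.70 and -0.33.

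ACSL4, ACSL3 and LPCAT3, which set how fatty acids enter phospholipids, all fell. ACSL4 activates arachidonic and adrenic acid, the main substrates of ferroptotic peroxidation. ACSL3 activates oleic and other monounsaturated acids, whose incorporation counters it. LPCAT3 inserts polyunsaturated acyl chains into lysophospholipids. The plot of fold changes shows that all 3 remained below 0 with and without the GC and length offset.

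ACSL4 (chromosome X, 109624244 to 109733403, minus strand) was at 112, 117 and 114 CPM in controls and 64.6, 59.3 and 64.6 CPM in DHA. Replicates were tight in both groups and the groups were far apart. The log2 fold change was -0.76 ± 0.07, or 1.70-fold lower, with an interval from -0.92 to -0.61 and an edgeR adjusted p of 3.35e-06. With the offset it was -0.37 ± 0.06 with an edgeR adjusted p of 0.000316. ACSL3 (chromosome 2, 222860934 to 222944639, plus strand) was at 285, 282 and 277 CPM in controls and 173, 145 and 179 CPM in DHA. The DHA library of replicate 2 was the lowest, and the groups did not overlap. Its log2 fold change was -0.67 ± 0.09, or 1.59-fold lower, with an edgeR adjusted p of 4.93e-05, and -0.26 ± 0.07 with an edgeR adjusted p of 0.0102 with the offset. Both genes kept their calls under that offset, with smaller differences.

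Because ACSL4 and ACSL3 both fell, their balance was examined within each library. Per kilobase of exon, ACSL4 stood at 0.442, 0.468 and 0.463 of ACSL3 in the control libraries and at 0.421, 0.461 and 0.408 in the DHA libraries. The ranges of the groups overlapped. The log2 ratio was -1.13 ± 0.04 in controls and -1.22 ± 0.09 in DHA (SD, n = 3), a difference of -0.09 with a two-sided exact permutation p of 0.2, where 0.1 is the smallest p that 3 against 3 libraries allow. A ratio within a library does not depend on how libraries are scaled, and both transcripts have a similar GC content.

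**Figure D3:**
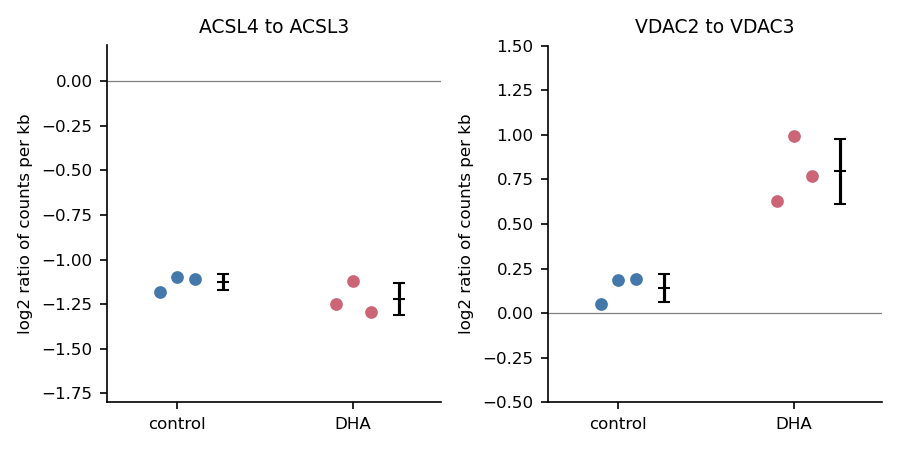
Log2 ratio of counts per kilobase of exon within each library, with 1 point per library and the mean ± SD in black (n = 3). The ratio of ACSL4 to ACSL3 lies near -1.1 to -1.3 in all 6 libraries, whereas that of VDAC2 to VDAC3 lies between 0.05 and 0.19 in controls and between 0.63 and 0.99 in DHA.

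The ACSL4 promoter window is shown as that of the most precisely measured fall. It held 3 GC boxes and 1 cyclic AMP response core, at position -191, in capitals below, and no CCAAT or TATA box.
ACSL4 promoter, minus strand, GRCh38.p14, chrX:109733208-109733507: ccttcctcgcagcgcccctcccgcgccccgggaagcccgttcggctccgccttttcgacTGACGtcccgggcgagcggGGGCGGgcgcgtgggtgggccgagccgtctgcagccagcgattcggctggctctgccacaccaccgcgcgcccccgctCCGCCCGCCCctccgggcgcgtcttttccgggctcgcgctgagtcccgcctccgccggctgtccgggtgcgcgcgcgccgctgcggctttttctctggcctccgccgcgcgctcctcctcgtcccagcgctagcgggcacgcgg

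LPCAT3 (chromosome 12, 6976186 to 7018510, minus strand) was at 32.3, 22.8 and 30.8 CPM in controls and 16.3, 15.7 and 14.2 CPM in DHA. The control library of replicate 2 was the lowest control, yet above every DHA library. The log2 fold change was -0.80 ± 0.13, or 1.74-fold lower, with an interval from -1.09 to -0.51 and an edgeR adjusted p of 0.000258, and it was -0.86 with the offset. A large share of LPCAT3 exons is also exon of EMG1, a ribosome biogenesis methyltransferase on the opposite strand. The shared exon length is 3100 of 4725 bases, and 55.8% of the 50-base stretches of LPCAT3 transcripts occur in transcripts of another gene. No source used here states whether counting used strand, so reads of LPCAT3 and EMG1 cannot be told apart in that stretch. EMG1 itself was at 38.2, 27.1 and 40.8 CPM in controls and 31.7, 49.4 and 30.7 CPM in DHA, with a log2 fold change of 0.17 ± 0.18 that did not pass (edgeR adjusted p of 0.433).

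Other genes of fatty acid activation and phospholipid remodelling mostly fell as well. Of 16 listed, 15 were tested, 11 fell and 2 rose, beside 30.1% and 29.6% of all genes tested. The median was -0.54, and 12 fell and 2 rose with the GC and length offset. The paralogs ACSL1 and ACSL5 fell by 0.82 ± 0.09 and 0.45 ± 0.06, and the acyltransferases LPCAT1, LPCAT2 and LPCAT4 fell by 0.54 ± 0.07, 0.84 ± 0.09 and 0.22 ± 0.08. The LPCAT4 call was lost without the control library of replicate 2, at -0.20. The ether lipid genes FAR1 and AGPS, which make plasmalogen precursors in peroxisomes, fell by 1.02 ± 0.07 and 0.98 ± 0.08. With the offset FAR1 and AGPS were at -0.49 and -0.52, and LPCAT2 was at -0.41. SCD, which makes monounsaturated fatty acids, fell from 2825 ± 66.5 to 1051 ± 44.6 CPM. The 2 that rose were PLA2G6, a phospholipase that removes oxidised acyl chains, from 10.6 ± 1.14 to 32.1 ± 2.29 CPM, and MBOAT7, which places arachidonic acid in phosphatidylinositol, by 0.34 ± 0.07, a call that ended with the offset.

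**Figure D4:**
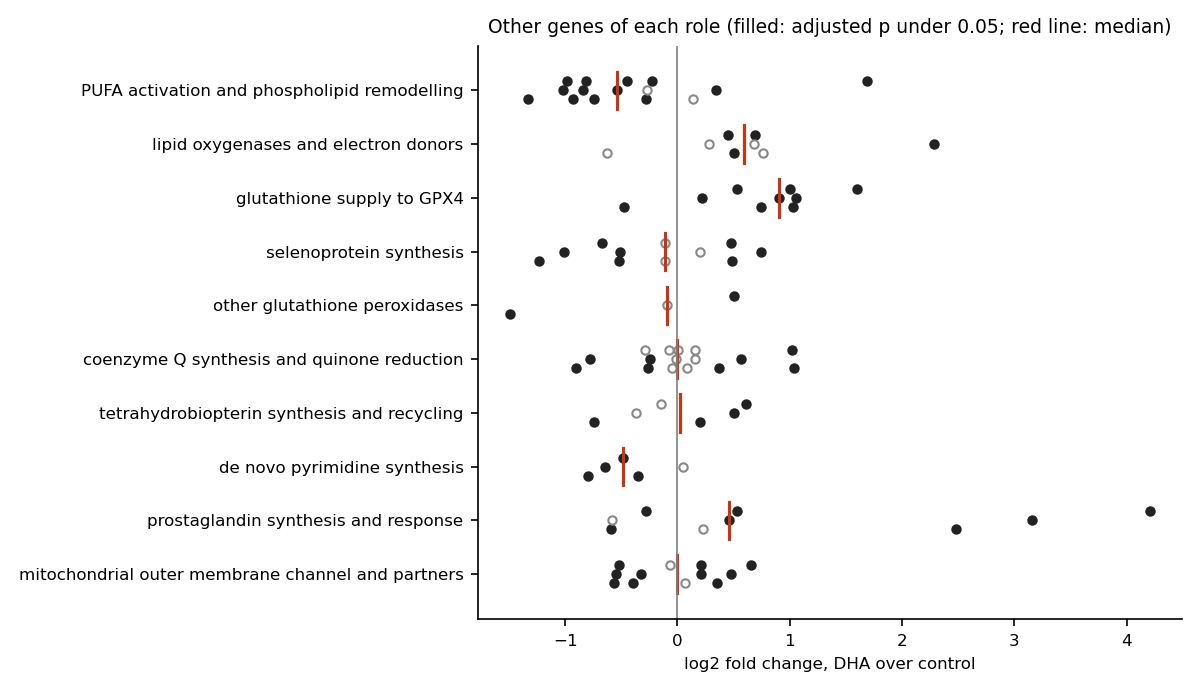
Log2 fold change (DHA over control) of the other tested genes of each role, with 1 point per gene, filled where the adjusted p was under 0.05, and the median of each list as a red line. The glutathione supply list has a median of 0.91 and the fatty acid activation list (PUFA, polyunsaturated fatty acid) a median of -0.54.

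PTGS2 encodes the inducible cyclooxygenase, which makes the prostaglandin precursor from arachidonic acid, and its transcript is widely used as a marker of ferroptosis. It was by far the most changed of the 10 regulators. PTGS2 (chromosome 1, 186671791 to 186680427, minus strand) had 41, 67 and 24 counts in the control libraries and 387, 357 and 292 in the DHA libraries, which is 2.16, 4.24 and 1.44 CPM against 26.1, 21.4 and 20.4 CPM. The groups were far apart, and among controls the library of replicate 2 was the highest. The log2 fold change was 3.23 ± 0.26, or 9.37-fold, with an interval from 2.67 to 3.79 and an edgeR adjusted p of 9.88e-07. It was 3.73 without the control library of replicate 2 and 3.59 with the GC and length offset. In size it stood at percentile 98.2 of the absolute log2 fold changes of all genes tested. The authors' deposited table, which lists genes past their own limits, gives PTGS2 a log2 fold change of 3.22 and an adjusted p of 1.62e-34 and holds none of the other 9 regulators. Even after its rise PTGS2 was a lowly expressed member, at 4.30 ± 0.577 CPM per kilobase of exon.

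The PTGS2 promoter window is shown because its transcript changed most. It was the only window among those of the 8 regulators to hold a TATA box, and it lacked GC boxes.
PTGS2 promoter, minus strand, GRCh38.p14, chr1:186680374-186680673: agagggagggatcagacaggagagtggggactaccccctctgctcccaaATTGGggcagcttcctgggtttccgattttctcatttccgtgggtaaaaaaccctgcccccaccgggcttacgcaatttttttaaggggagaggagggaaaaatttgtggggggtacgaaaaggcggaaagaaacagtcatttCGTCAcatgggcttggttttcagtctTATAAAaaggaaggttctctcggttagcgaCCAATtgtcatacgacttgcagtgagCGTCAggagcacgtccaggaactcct
The TATA box begins at position -32, and cyclic AMP response cores begin at positions -58 and 25. The GC content of this window was 50.7%, against 60.7% to 79.0% for the other windows.

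Around PTGS2, 3 of the 4 prostaglandin receptor genes listed, PTGER1 to PTGER4, were higher in DHA, and the enzymes upstream and downstream were split. The 9 tested genes of prostaglandin synthesis and response had a median of 0.46. Of these, 5 were called higher and 2 lower, beside 29.6% and 30.1% of all genes tested. With the offset the numbers were 4 and 3. The receptor gene PTGER4 rose by 2.48 ± 0.12, from 6.90 ± 1.16 to 36.2 ± 1.95 CPM. PTGER3 rose from 0.158 ± 0.0460 to 2.82 ± 0.506 CPM and PTGER1 from 0.149 ± 0.103 to 1.35 ± 0.408 CPM, with control levels near the limit of detection, so no fold change is given. The remaining receptor gene of the list, PTGER2, had a log2 fold change of -0.58 ± 0.29 that did not pass. The phospholipase PLA2G4A, which releases arachidonic acid, fell by 0.59 ± 0.12 and the prostaglandin synthase PTGES by 0.28 ± 0.10. In the other direction, PTGES2 and PTGES3 were called higher, by 0.53 ± 0.11 and 0.46 ± 0.09. With the offset the PTGES2 call ended, at -0.007, while PTGES3 was at 0.54. The constitutive paralog PTGS1 was at 0.413 ± 0.238 CPM in controls and 0.678 ± 0.0198 CPM in DHA, and its log2 fold change of 0.76 ± 0.44 did not pass.

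Of 11 genes of lipid oxygenases and their electron donors, 8 were tested, 4 rose and 0 fell, with a median of 0.59. The shares over all genes tested were 29.6% higher and 30.1% lower. ALOXE3, an epidermal-type lipoxygenase, rose from 5.43 ± 0.877 to 24.7 ± 0.274 CPM, or 2.29 ± 0.13 on the log2 scale. The oxidoreductases POR and CYB5R1, which pass electrons that can feed lipid peroxidation, rose by 0.45 ± 0.06 and 0.51 ± 0.10, both also called with the offset. ALOX5 rose by 0.69 ± 0.25 from 1.69 ± 0.429 CPM, and its call ended with the offset and without replicate 2 of either group, at 0.65 without the control library and 0.61 without the DHA library. With the offset 3 genes of this list rose and 1 fell.

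VDAC2 and VDAC3 moved in opposite directions. They encode channels of the mitochondrial outer membrane that pass metabolites, and both proteins bind erastin, a compound that induces ferroptosis. VDAC2 (chromosome 10, 75210154 to 75231448, plus strand) was at 108, 111 and 115 CPM in controls and 130, 151 and 127 CPM in DHA. All DHA libraries stood above all controls, and that of replicate 2 was the highest. The log2 fold change was 0.38 ± 0.07, or 1.31-fold, with an interval from 0.23 to 0.54 and an edgeR adjusted p of 0.000726, and it was 0.33 with the GC and length offset. VDAC3 (chromosome 8, 42391624 to 42405897, plus strand) was at 116, 109 and 112 CPM in controls and 93.7, 84.2 and 83.2 CPM in DHA. Here all DHA libraries stood below all controls. The log2 fold change was -0.27 ± 0.07, or 1.21-fold lower, with an edgeR adjusted p of 0.00748, and it was -0.22 with the offset. Without the DHA library of replicate 3 the VDAC3 value was -0.23 with an edgeR adjusted p of 0.0515, so that call rests on small margins.

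The balance between both channels, taken within each library, differed between the groups. Per kilobase of exon, VDAC2 stood at 1.04, 1.14 and 1.14 times VDAC3 in controls and at 1.54, 1.99 and 1.70 times in DHA. No DHA library reached down to a control. The log2 ratio went from 0.14 ± 0.08 to 0.80 ± 0.18 (SD, n = 3), a difference of 0.65 with a two-sided exact permutation p of 0.1, the smallest that this design allows. VDAC2 shares 24.9% of its 50-base stretches with other annotated transcripts, nearly all with the processed pseudogene AC007318.1 on chromosome 2, which had between 302 and 596 counts per library. No source used here states how reads were divided between them. Summing the counts of both, an alternative added after the data were seen, gave VDAC2 a log2 fold change of 0.40 ± 0.08. The third paralog, VDAC1, fell from 321 ± 23.8 to 209 ± 6.16 CPM, or -0.52 ± 0.08.

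Among 12 tested genes of the outer membrane channels and their partners, VDAC1 included, 5 were called higher and 5 lower. The median was 0.00, and the shares over all genes tested were 29.6% higher and 30.1% lower. HK2, a hexokinase that docks on VDAC, fell by 0.55 ± 0.07, and TOMM20 and TOMM40, parts of the protein import complex, had log2 fold changes of -0.56 ± 0.07 and 0.48 ± 0.09. NEDD4L, a ubiquitin ligase, rose by 0.66 ± 0.07, and NEDD4, the related ligase reported to degrade VDAC2 and VDAC3 in melanoma cells, fell by 0.39 ± 0.12, a call that ended with the offset at 0.07. With the offset 2 genes of this list rose and 6 fell, and without the control library of replicate 2 the numbers were 2 and 4.

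**Figure D5:**
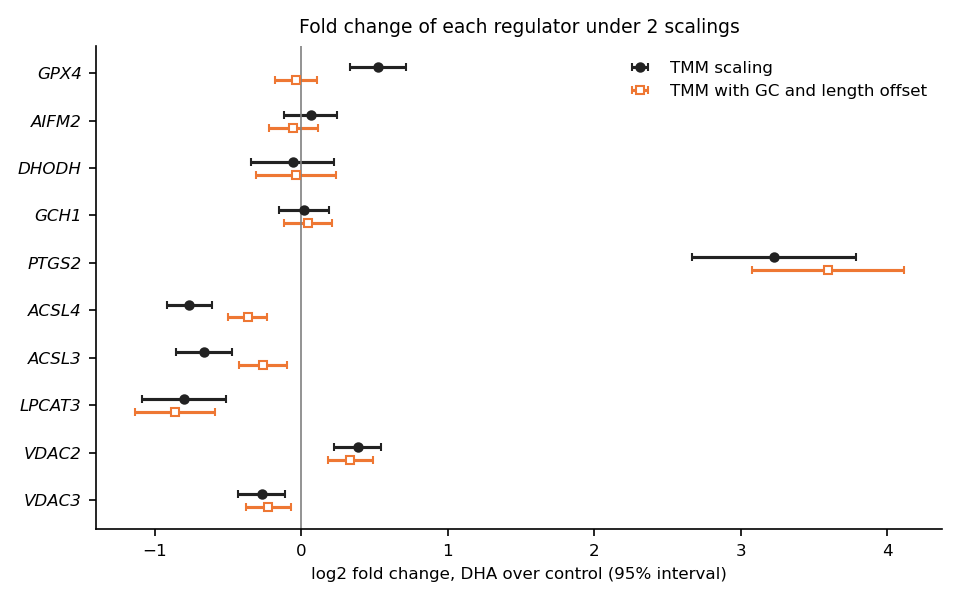
Log2 fold change (DHA over control) of each regulator with its 95% interval, from the fit with TMM scaling (filled circles) and from the fit that also removes the trend with GC content and exon length (open squares). GPX4 moves from 0.52 to -0.04, ACSL4 and ACSL3 move from -0.76 and -0.67 to -0.37 and -0.26, and PTGS2 stays above 3 in both fits.

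Ranked per kilobase of exon, GPX4 was the highest regulator in controls at 113 ± 10.1 CPM per kilobase, followed by VDAC2 at 39.4 ± 1.15, ACSL3 at 38.9 ± 0.530, VDAC3 at 35.7 ± 1.19, ACSL4 at 17.8 ± 0.437, GCH1 at 13.9 ± 0.575, AIFM2 at 9.60 ± 0.592, LPCAT3 at 6.06 ± 1.07, DHODH at 2.96 ± 0.544 and PTGS2 at 0.496 ± 0.276 (SD, n = 3). Of neighbours in this order, VDAC2 and ACSL3 overlapped between libraries, and the other neighbours did not. In DHA the order differed: VDAC3, at 27.7 ± 1.85, stood above ACSL3 at 22.9 ± 2.49, GCH1 at 13.2 ± 0.749 stood above ACSL4 at 9.80 ± 0.474, and PTGS2 stood above LPCAT3 at 3.26 ± 0.225 and DHODH at 2.66 ± 0.211. There ACSL4 and its neighbour AIFM2, at 9.39 ± 0.846, overlapped, and no other neighbours did. GPX4 remained first, at 152 ± 14.9 CPM per kilobase. Exon lengths are unions over all annotated exons, some of which these cells may not use, so the order is approximate.

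The genes whose profile over the 6 libraries was most like that of a regulator were found by the root mean square difference of centred log2(CPM + 1) values among 11143 other genes with a mean of at least 5 CPM. For PTGS2 these were MXD1 and SESN2, with differences of 0.25 and 0.27. For ACSL4 they were TMEM123 and AC099850.3, with differences of 0.015 and 0.017. For GPX4 they were MYL6B and TOMM40, with differences of 0.019 and 0.025. Their log2 fold changes were 2.93 and 2.38, -0.78 and -0.84, and 0.54 and 0.48, in the same order, and the likeness covers only these 2 groups of 3 libraries.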

How the data were processed

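Per the labels, poly(A) RNA of 3 control and 3 DHA wells was sequenced from libraries made with a NEBNext Ultra II kit. HISAT2 and DESeq2 1.18.1 are named in the submitters' processing notes; the read counter, its strand setting, annotation and build are named in no source used here. Raw counts of 40846 genes were deposited by the authors. Genes of a shared name (143 names) carry identical counts, so 1 row per name was kept, which left 39293, and 32 lines with no gene (0.0783% of lines) were left out. Of the kept identifiers, 39167 were in GENCODE release 29 (GRCh38), 96.9% with the same coordinates and strand, as for all 10 regulators. The authors' deposited comparison table holds log2 fold changes with p-values and adjusted p-values; its 2969 genes all have an adjusted p under 0.05 and changed by at least 2-fold. A further deposited table was not used.

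The counts were fitted with edgeR 4.0.16 under R 4.3.3 (filterByExpr, TMM, glmQLFit, glmQLFTest, Benjamini-Hochberg over 15811 genes). The common biological coefficient of variation was 0.0902. The F statistic gave the standard errors, and CPM were scaled by library totals. DESeq2 1.42.0 and limma 3.58.1 on log2(CPM + 1) were alternatives, as were other size factors, library totals alone, other low-count filters (none, or 1 CPM in 3 libraries), a replicate block and leaving out each library. A GC and length offset (mgcv 1.9.3), the VDAC2 sum and further runs of the list counts were added after the data were seen. The code of the fit was also run on simulated data with few changed genes and no GC trend, so that run does not bear on the calls made here. Figures used Python 3.11.15 and matplotlib 3.10.9. Promoters are from RefSeq (GRCh38.p14), transcripts from GENCODE release 29.

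The regulators and the gene lists were chosen with earlier results of these data known. Named genes are the 10 regulators, their paralogs, up to 4 members of each list with the smallest adjusted p, and the less frequent direction's called members where these were 3 or fewer; 1 gene that this rule names is not reported here, and a few others, named for their role or for a call or sign that changed, were chosen after their values were seen. Same-group libraries differed by a chi-square per gene of 1.66 to 14.8 and libraries of different groups by 106 to 138, so none was taken for a copy. The labels do not state that the replicate numbers mark pairs, so they were not taken as pairs. Same-numbered libraries of both groups did not deviate together, which does not exclude pairing.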

Additional observations from a re-analysis of the deposited data

How the results depend on the processing

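Of 301 values recomputed under alternatives, list counts included, 288 kept their call, stayed within the spread or, for counts, within 1.5 times, and 13 did not. GPX4 turned to -0.037 with the GC and length offset, and the cause was not tested. VDAC3 was at -0.23, with an edgeR adjusted p of 0.0515, without the DHA library of replicate 3; leaving out each library gave -0.32 to -0.21. With library totals alone, 2 in place of 1 tetrahydrobiopterin genes were lower. In the list of outer membrane channels and partners, 2 in place of 5 genes were higher. These were the same numbers as without the control library of replicate 2. The median of all genes was -0.09 with library totals alone, in place of 0.01. With the GC and length offset, an added alternative, 1 in place of 0 lipid oxygenase genes was lower. Of the other glutathione peroxidases, 0 in place of 1 was higher and 2 in place of 1 lower. Of the tetrahydrobiopterin genes, 1 in place of 3 was higher and 3 in place of 1 lower. Also, 1 in place of 0 pyrimidine genes was higher, and 2 in place of 5 genes of the channel and partner list were higher. List counts with DESeq2 size factors and without replicate 2 of either group were also added after the data were seen. Leaving out replicate 2 gave 2 higher genes of the channel and partner list without the control library and 4 without the DHA library. Over all genes, 4674 were higher and 4757 lower, 3852 and 5612 with library totals alone, and 4000 to 4721 and 4171 to 4590 when each library was left out. Leaving out each library gave GPX4 0.45 to 0.57, ACSL4 -0.78 to -0.69, ACSL3 -0.72 to -0.54, LPCAT3 -0.94 to -0.70, PTGS2 2.95 to 3.73 and VDAC2 0.34 to 0.44. The uncalled AIFM2, DHODH and GCH1 changed sign in some of the 14 alternatives and passed in none, with adjusted p of at least 0.328, 0.217 and 0.416. The ratio difference lay between -0.14 and -0.06 for ACSL4 to ACSL3 and between 0.56 and 0.74 for VDAC2 to VDAC3. Same-numbered libraries had correlations of deviations of 0.06, -0.16 and -0.14. With 3 libraries per group, such values cannot exclude that same-numbered wells shared a culture or a day, which the labels do not state. With the replicate block PTGS2 was at 3.26, VDAC2 at 0.38 and no regulator's call changed. PTGS2 had the fewest counts of the regulators, 24 to 67 in controls, and the largest standard error.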

Other observations

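The control library of replicate 2 stood apart from the other controls in genes near these regulators. CHAC1, which degrades glutathione, was at 65.7 CPM there and at 18.4 and 16.5 CPM in the other controls, against 82.5, 114 and 85.6 CPM in the DHA libraries of replicates 1, 2 and 3. SLC7A11, the cystine importer chain, was at 124 CPM there and at 72.7 and 64.6 CPM in the other controls, against 149, 196 and 144 CPM in DHA. PTGS2 was also highest among controls in that library, at 4.24 CPM. These 3 genes were picked after their values were seen.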
